A study of Glycine max with 2 samples.

Results

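Leaf RNA of soybean (Glycine max) was followed between 95 and 50 days after sowing in the library that the deposited tables call A. The transcripts described are those listed in both tables, 788 of the 2471 listed at 95 days and of the 2413 listed at 50 days, which is 31.9% and 32.7%. They belong to 719 genes, and a transcript here is 1 isoform of a gene model. The study grew an early and a late senescence type in a greenhouse under normal conditions and sampled leaves at both ages. Each table compares 2 libraries, A and B, with 1 library per type and age, and lists only transcripts whose p-value for A against B, as the authors deposited it, is under 0.05. Neither the headers nor the labels say which type A is, or that A is the same type at both ages. Of the 788 transcripts, 536 (68.0%) had more reads in the same library at both ages. There was no replicate, so the values below are levels in 1 library at 95 days and in 1 library at 50 days, with no test between them.

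Leaf ageing is an ordered breakdown in which chloroplasts are dismantled and their nitrogen and sugars are exported to growing pods. The circadian clock of plants is a loop of repressors that follow each other through the day: LHY and its relatives act around dawn, the pseudo-response regulators PRR9, PRR7 and PRR5 through the day, and TOC1, GIGANTEA and the ELF3 complex towards evening. Clock transcripts therefore depend on the hour of harvest as well as on age. The labels used here give no hour, so an effect of age and an effect of the hour cannot be told apart.

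Levels are given as normalised reads, the deposited value minus the 1 that had been added to every value. A transcript was compared where it had 100 or more normalised reads in A at either age, and it is called higher or lower where the levels were at least 4-fold apart. A level of 0 was set to 3 reads (3.74 normalised reads at 95 days and 2.41 at 50 days), so such folds are bounds. Other folds carry a 95% exact binomial (Clopper-Pearson) interval, which covers counting error only. Of the 788 transcripts, 549 from 501 genes were compared. Of the other 239, 158 had no read in A at either age and 81 stayed under the minimum. The compared ones with the lowest upper level had 101, 103.5 and 105 normalised reads, and the highest of those left out had 97.1, 95.5 and 94.7. At this minimum, any compared transcript with 0 reads at an age was past 4-fold by construction; 126 had 0 at 95 days and 63 had 0 at 50 days.

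In A, 90 of the 549 transcripts were higher at 95 days (16.4%) and 191 were lower (34.8%), and 268 were within 4-fold. The median log2 ratio of 95 over 50 days was -0.56. In whole leaf, fewer cells of a type and less RNA per cell cannot be told apart. These counts follow closely which library had more reads. Of 161 transcripts with more reads in A at 50 days and more in B at 95 days, 159 were lower in A at 95 days. Of 73 with the opposite order, 72 were higher in A. A transcript is listed only where A and B differ, so a change of side nearly fixes the direction in A, and nothing is read from these shares. Of the 281 transcripts past 4-fold, 231 had changed side. In 307 compared transcripts A had more reads than B at both ages, and there the listing did not fix the direction in A. Of these 307, 203 had no read in B at either age. Membership needs more reads in A than in B at both ages, so a transcript with no read in A at either age could not be in this set. The selection thus limits the size of the change, and the shares describe this set only. Of the 307, 173 were within 2-fold, 260 within 4-fold, 16 were higher (5.21%) and 31 lower (10.1%), with a median of -0.12. With unscaled reads these became 6 higher and 63 lower, and with the log2 ratios centred on the median of all 549 they became 29 higher and 20 lower. The balance of higher and lower thus rests on the scaling between ages.

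**Figure D1:**
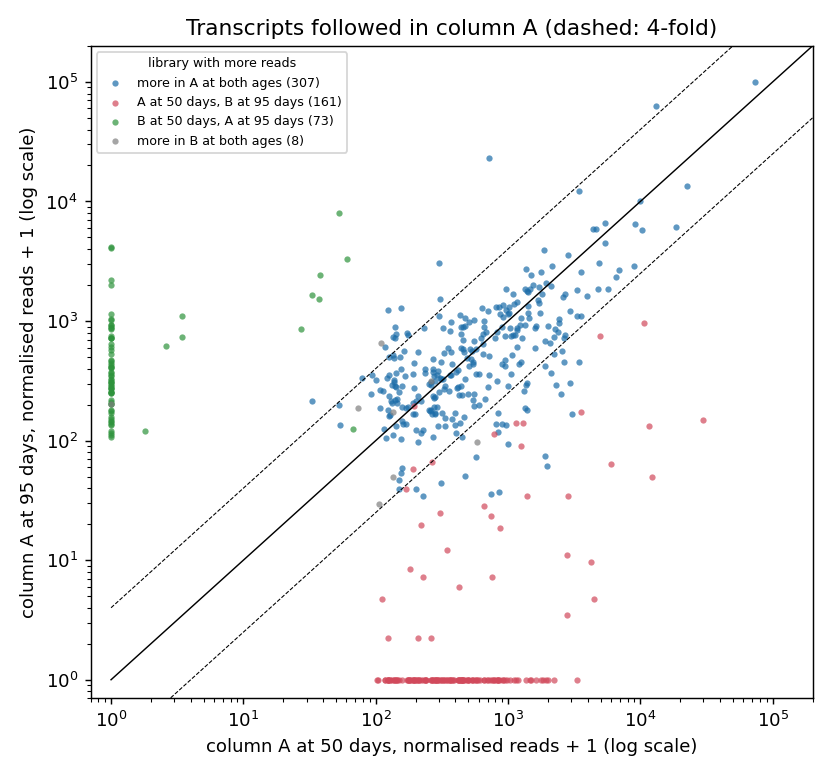
Normalised reads plus 1 in column A at 95 days (vertical, log scale) against 50 days (horizontal, log scale) for the 549 compared transcripts, each a point coloured by the library with more reads at each age. The 307 transcripts with more in A at both ages lie along the diagonal, 260 of them inside the dashed 4-fold lines. Of those that changed side, 126 of the 161 with more in A at 50 days lie at no read at 95 days. Of the 73 with the opposite order, 62 lie at no read at 50 days. The rest of those that changed side had reads in A at both ages. Membership in the 307 needs reads in A at both ages, so none of them can lie at no read.

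Clock-related families went different ways in A. The 4 lists for the clock, LNK and B-box proteins held 28 transcripts of 20 genes, all compared; 21 were lower at 95 days, 5 higher and 2 within 4-fold. Of these, 18 had changed side between the libraries, which leaves their direction in A nearly fixed by the listing, so this count is a description. Of the 10 with more in A at both ages, 7 were lower, 1 higher and 2 within 4-fold, beside 10.1% lower and 5.21% higher among all 307; centred, 6 were lower and 1 higher. All 11 PRR5-like transcripts, from 3 genes, were lower, and all had changed side. Their deposited names are PRR95, of rice, or APRR5, of Arabidopsis, and they are called PRR5-like here. The most abundant, Glyma.07G049400.16, had 132 normalised reads in A at 95 days and 11597 at 50 days, 87.8-fold lower (72.6 to 107). In B the same isoform had 2585 at 95 days and 74.2 at 50 days, so the ratios in A and B ran in opposite ways. The other 10 PRR5-like transcripts had no read in A at 95 days and between 503 and 1188 at 50 days. Among them, 4 were isoforms of Glyma.19G260400, whose summed level was 0 at 95 days against 3948 at 50 days, and 2 were isoforms of Glyma.03G261300, at 0 against 1888. Isoforms of 1 gene can share reads and are not separate observations. A PRR7-like isoform, Glyma.13G135900.3, was within 4-fold, with 1309 in A at 95 days and 857 at 50 days, and had no read in B at either age.

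LHY encodes a MYB repressor of the clock that peaks around dawn. Glyma.07G048500.5, an LHY isoform, had 73.5 normalised reads in A at 95 days and 1913 at 50 days, 26.0-fold lower (20.1 to 34.3). Glyma.19G260900.2, an isoform of another LHY gene, had 303 against 2924, 9.66-fold lower (8.48 to 11.0). Another gene matched to LHY did not go with them: Glyma.03G261800.5, described as MYB114, had 212 at 95 days and 32.1 at 50 days, 6.59-fold higher (4.65 to 9.56). All of these LHY transcripts had more reads in A than in B at both ages. In B, the first had 1.09 at 95 days and 70.4 at 50 days and the next 20.8 and 81.7, all under the minimum of 100.

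The evening components and REVEILLE 1, all of which had changed side, were at the other end of the range. EARLY FLOWERING 3-like Glyma.04G050200.3, a scaffold of the evening complex, had 4182 normalised reads in A at 95 days and none at 50 days, at least 1737-fold higher, above every other ratio or bound among the 549. TOC1-like Glyma.17G102200.4 had 7993 at 95 days and 51.4 at 50 days, 156-fold higher (122 to 202). REVEILLE 1, a MYB factor related to LHY that links the clock to auxin in Arabidopsis, had 2422 against 36.9 as Glyma.02G241000.1, 65.6-fold higher (49.0 to 89.9). Another gene matched to REVEILLE 1, Glyma.14G210600.2, which the wording of the clock lists missed, had 308 at 95 days and none at 50 days. All of these were lower at 95 days in B, for TOC1 with 259 at 95 days and 1574 at 50 days.

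LNK proteins are co-activators that work with REVEILLE factors, and all 5 listed were lower in A at 95 days. The 2 LNK2-like transcripts had more reads in A than in B at both ages: Glyma.15G237600.2 had 247 normalised reads in A at 95 days and 2525 at 50 days, 10.2-fold lower (8.87 to 11.9), and Glyma.04G141400.6 had 369 against 2109, 5.72-fold lower (5.07 to 6.47). Centring brought the second of these under 4-fold, at a log2 ratio of -1.96. In B both had no read at 95 days, and 65.7 and 78.9 at 50 days. The 3 LNK1-like transcripts had 0, 0 and 22.4 in A at 95 days and between 334 and 746 at 50 days, and were higher at 95 days in B, having changed side. B-box zinc finger factors of the CONSTANS family carry light and photoperiod signals. Among the 5 listed, Glyma.13G303700.1 had 36.1 in A at 95 days and 853 at 50 days, 23.6-fold lower (16.4 to 35.4), and had no read in B at either age. Glyma.01G168500.4, described as B-box protein 18-like, had 34.9 against 738, 21.2-fold lower, and CONSTANS-LIKE 2, Glyma.18G278100.2, had 179 against 1393, 7.77-fold lower. Glyma.07G091400.1 was within 4-fold at 285 and 439. Glyma.14G190400.5, CONSTANS-LIKE 9-like, went the other way, with 932 at 95 days and none at 50 days. Unlike those before it, it had changed side, with none in B at 95 days and 458 at 50 days, so the listing nearly fixes its direction. A FLOWERING LOCUS T-like transcript, Glyma.16G044100.1, of the family of the mobile flowering signal, had 64.8 in A at 95 days and 266 at 50 days, and 1103 in B at 95 days against none at 50 days; centred, it was within 4-fold in A.

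**Figure D2:**
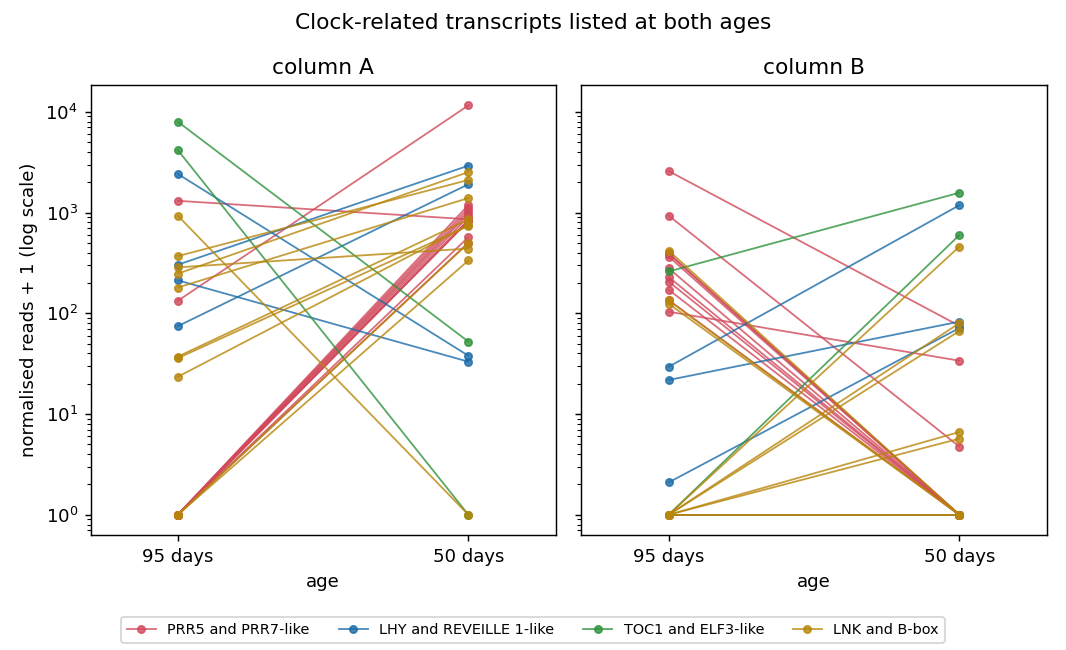
Normalised reads plus 1 (log scale) of the 28 clock-related transcripts at 95 days (left of each panel) and 50 days (right), in column A and column B; each line joins the 2 ages of 1 transcript and a point at 1 means no read. In column A the PRR5-like lines lie lower at 95 days and the TOC1 and ELF3-like lines higher, while in column B 10 of the 11 PRR5-like transcripts were higher and TOC1 and ELF3 lower.

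The 3 starch synthesis transcripts had no read in A at 95 days, and all had changed side. ADP-glucose pyrophosphorylase supplies the glucose donor of starch, and its large subunit had no read at 95 days and 3317 normalised reads at 50 days as Glyma.12G042400.1, at least 888-fold lower. Both listed isoforms of a starch branching enzyme had no read at 95 days, against 2215 for Glyma.03G192300.3 and 546 for Glyma.03G192300.5 at 50 days. In B the pyrophosphorylase had 154 at 95 days and 40.4 at 50 days, within 4-fold. All 7 compared members of the sugar and starch list were lower in A, but 5 of them had changed side, so nothing is read from that count. The 2 with more reads in A at both ages were SWEET15, Glyma.06G166800.3, and a raffinose synthase, Glyma.06G179200.1. SWEET15, a sugar exporter whose symbol is that of SWEET12 of Arabidopsis, had 300.2 at 95 days and 1399 at 50 days, 4.66-fold lower (4.07 to 5.36). The raffinose synthase had 43.6 against 312. Centred, SWEET15 was within 4-fold, at a log2 ratio of -1.66. The list also held a regulatory subunit of SNF1-related kinase, Glyma.03G236900.3, and an invertase or pectin methylesterase inhibitor, Glyma.09G231900.1, which are not sugar enzymes. The inhibitor had 957 in A at 95 days and 10672 at 50 days, and 54226 in B at 95 days and 100.5 at 50 days.

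Chloroplast and nitrogen transcripts included large differences in both directions. Chlorophyllide a oxygenase, which makes chlorophyll b, had 8.72 normalised reads in A at 95 days and 4267 at 50 days as Glyma.14G150600.1, 489-fold lower (237 to 1218). A chlorophyll a/b-binding protein of photosystem I, Glyma.19G261400.1, had 33.6 against 1390, 41.3-fold lower (28.3 to 62.9). A 1-deoxy-D-xylulose-5-phosphate synthase, the entry enzyme of plastid isoprenoid synthesis, Glyma.17G021800.2, and a phosphoglycolate phosphatase of photorespiration, Glyma.18G244900.3, had no read at 95 days, against 1934 and 1494 at 50 days. Ferredoxin-dependent glutamate synthase of the chloroplast, Glyma.19G130800.3, had 48.6 at 95 days and 12301 at 50 days, 253-fold lower (185 to 356). A cytosolic glutamine synthetase, also an enzyme of ammonium assimilation, Glyma.11G215500.2, had 62.3 against 6022, 96.7-fold lower (73.3 to 130). Asparagine synthetase 1, which makes a transport form of nitrogen, had 428 at 95 days and none at 50 days as Glyma.18G061100.3. All of these had changed side between the libraries, and in B each was past 4-fold the opposite way. The gamma chain of the chloroplast ATP synthase did not change side: Glyma.15G107900.2 had 23184 in A at 95 days and 723 at 50 days, 32.1-fold higher (29.98 to 34.3), and 1432 in B at 95 days against none at 50 days. It was the highest ratio among the 307 transcripts with more in A at both ages. Allantoate amidohydrolase, which releases ammonium from the ureides of nodulated soybean, was within 2-fold, with 4454 at 95 days and 5389 at 50 days as Glyma.15G156900.3. So was glycolate oxidase, the peroxisomal enzyme of photorespiration, whose 2 isoforms of Glyma.05G141300 summed to 643 at 95 days and 431 at 50 days, a ratio of 1.49 (1.32 to 1.69).

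Further high and low ratios that the naming rule took were of single genes. CROWDED NUCLEI 1, a lamina-like protein, had 4083 normalised reads in A at 95 days and none at 50 days as Glyma.18G280500.1, at least 1695-fold higher. DCAF1, the substrate receptor of a CUL4 ubiquitin ligase, had 2213 against none as Glyma.04G073900.3, at least 919-fold higher. PIR-like Glyma.03G253000.3, a subunit of the actin-nucleating WAVE complex, had 1042 against none. At the low end stood uclacyanin-3, a small copper protein, Glyma.03G109900.2, with 2.49 at 95 days and 2803 at 50 days, 1125-fold lower (311 to 9295). SMG1-like Glyma.11G123500.2, matched to a mouse kinase of nonsense-mediated decay, and the energy-sensing kinase SNF1-like Glyma.13G060400.3 had no read at 95 days, against 1774 and 1474. Picked outside the rule with its values in view was a SPA1-like gene, Glyma.16G027200, a partner of the light-signalling ligase COP1. Both its isoforms were at 0 in A at 95 days and summed to 1754 at 50 days. A pump described as ABCG41, Glyma.08G070800.2, had 148 at 95 days and 29775 at 50 days, 201-fold lower (168 to 243). Each of these had changed side between the libraries. The ubiquitin and proteasome list, of 23 compared transcripts, held 5 higher, 9 lower and 9 within 4-fold, near the shares among all compared (16.4% higher and 34.8% lower), and 13 of its 14 called members had changed side. Its 5 UPL-type ligase transcripts, from 3 genes, were 2 higher and 3 lower; all had changed side, and 2 of them are isoforms of UPL7 that went opposite ways.

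A few genes had different isoforms at the ages in A, and their summed levels in A were less than 2-fold apart. Of 39 genes with at least 2 compared isoforms, 5 had an isoform at least 4-fold higher and another at least 4-fold lower. Every called isoform of these 5 genes had changed side between the libraries. The listing thus nearly fixes their directions in A, and an exchange of isoforms with age was not tested. The splicing factor CWC22, Glyma.13G178100, had 1135 normalised reads of Glyma.13G178100.1 and none of Glyma.13G178100.3 in A at 95 days. At 50 days it had none of the first and 1141 of the other. Its sum was 1135 at 95 days and 1141 at 50 days, a ratio of 0.99 (0.91 to 1.08). In B the order was the opposite, with 664 of Glyma.13G178100.3 alone at 95 days and 1039 of Glyma.13G178100.1 alone at 50 days. The Mediator kinase-module subunit MED12 had 1983 of Glyma.18G232900.3 and 9.96 of Glyma.18G232900.1 in A at 95 days, against none and 2795 at 50 days. The ratio of its sums was 0.71 (0.67 to 0.76). The ubiquitin ligase UPL7, Glyma.19G189100, and IQ-DOMAIN 31-like Glyma.02G019700, a calmodulin-binding protein, had ratios of sums of 0.86 (0.77 to 0.97) and 1.03 (0.94 to 1.14). The remaining gene, Glyma.09G062700, is uncharacterised and had a ratio of sums of 0.58 (0.53 to 0.64), the furthest from 1. In B the sums of UPL7 were 125 at 95 days and 828 at 50 days, so they were less close than in A. Those of CWC22, MED12, IQ-DOMAIN 31 and Glyma.09G062700 in B were 664 and 1039, 1727 and 1550, 717 and 787, and 1324 and 946. Of the other genes, 11 had every compared isoform lower, 2 had every one higher, 12 had all within 4-fold, and 9 mixed a called isoform with 1 within 4-fold. Sums cover only isoforms listed at both ages, so a gene's total is not known. The counter is not named in the sources used, and a division of shared reads between isoforms was not tested as a part of these differences.

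**Figure D3:**
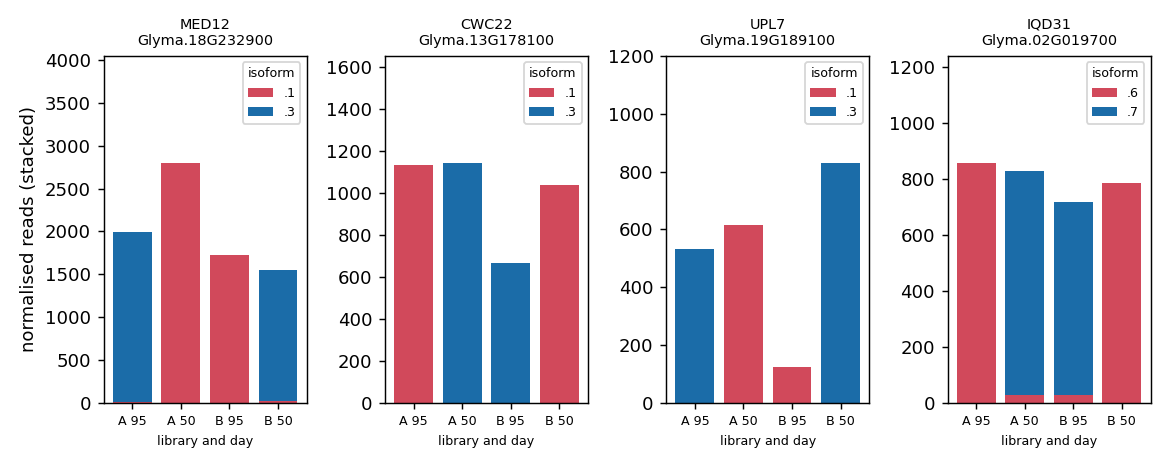
Stacked normalised reads of the isoforms listed at both ages, for 4 genes, in columns A and B at 95 and 50 days (bars from 0). In column A the isoform that dominates at 95 days is nearly absent at 50 days, and the bars differ less in height. Column B shows the reverse order, but there the UPL7 bars differ more, at 125 at 95 days and 828 at 50 days. Every isoform shown had changed side, so the listing nearly fixes its direction in column A.

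Among the 307 transcripts with more in A at both ages, 16 were higher, and the examples given here were picked with their values in view. A deaminase matched to guanosine deaminase of Arabidopsis, an enzyme of purine breakdown, is Glyma.15G186100.1. It had 62984 normalised reads in A at 95 days and 13059 at 50 days, 4.82-fold higher (4.74 to 4.91), and 108 in B at 95 days against 426 at 50 days. Tyrosine aminotransferase, of tyrosine breakdown and tocopherol synthesis, had 3045 against 299 as Glyma.06G235500.5, 10.2-fold higher (9.12 to 11.4); over both listed isoforms the sums were 3951 and 1917, 2.06-fold (1.95 to 2.17). Methylmalonate-semialdehyde dehydrogenase, of valine breakdown, had 612 against 116 as Glyma.08G066600.2. An organellar ribonuclease II, Glyma.18G153300.3, had 1234 against 122, 10.1-fold higher, and the glutamate receptor 3.6-like channel Glyma.11G087100.2 had 772 against 141. Both isoforms of an IOS1-like receptor kinase, Glyma.13G352900, were higher, with sums of 2085 and 323, 6.45-fold (5.78 to 7.20), while an IOS1-like transcript of another gene, Glyma.08G198900.1, was lower, with 137 against 907. An anthocyanin acyltransferase, Glyma.14G034100.1, had 1517 at 95 days and 305 at 50 days, 4.97-fold higher. With unscaled reads the deaminase, the semialdehyde dehydrogenase, the glutamate receptor, the acyltransferase and the IOS1-like isoform Glyma.13G352900.2 were within 4-fold.

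Of the 31 lower ones in that set, 7 were the clock-related ones above, and the examples that follow were also picked with their values in view. The vacuolar cation/proton exchanger 3, Glyma.07G149600.4, which loads calcium into the vacuole, had 59.8 normalised reads in A at 95 days and 1963 at 50 days, 32.8-fold lower (24.7 to 44.6). It was the lowest ratio of the set, and in B the transcript had none at 95 days and 129 at 50 days. An ABCG transporter of the pleiotropic drug resistance type, Glyma.10G203000.1, had 167 against 3044, 18.2-fold lower, with no read in B at either age. The cytokinin receptor histidine kinase 4, Glyma.08G049000.4, had 291 against 2284, 7.84-fold lower (6.86 to 8.99), and gibberellin 2-beta-dioxygenase 1, Glyma.15G248400.1, which inactivates gibberellins, had 117 against 844, 7.21-fold lower. The UV-B receptor UVR8-like Glyma.14G066000.2 had 135 against 962. A polyol transporter 5-like transcript, Glyma.12G044700.1, had 528 against 2234, and was within 4-fold when centred. The list counts in that set were 2 lower and 4 within 4-fold of 6 for transporters, and 4 within of 4 for auxin. The words of the transporter list missed the ABCG and polyol transporters named here, so its count leaves them out.

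**Figure D4:**
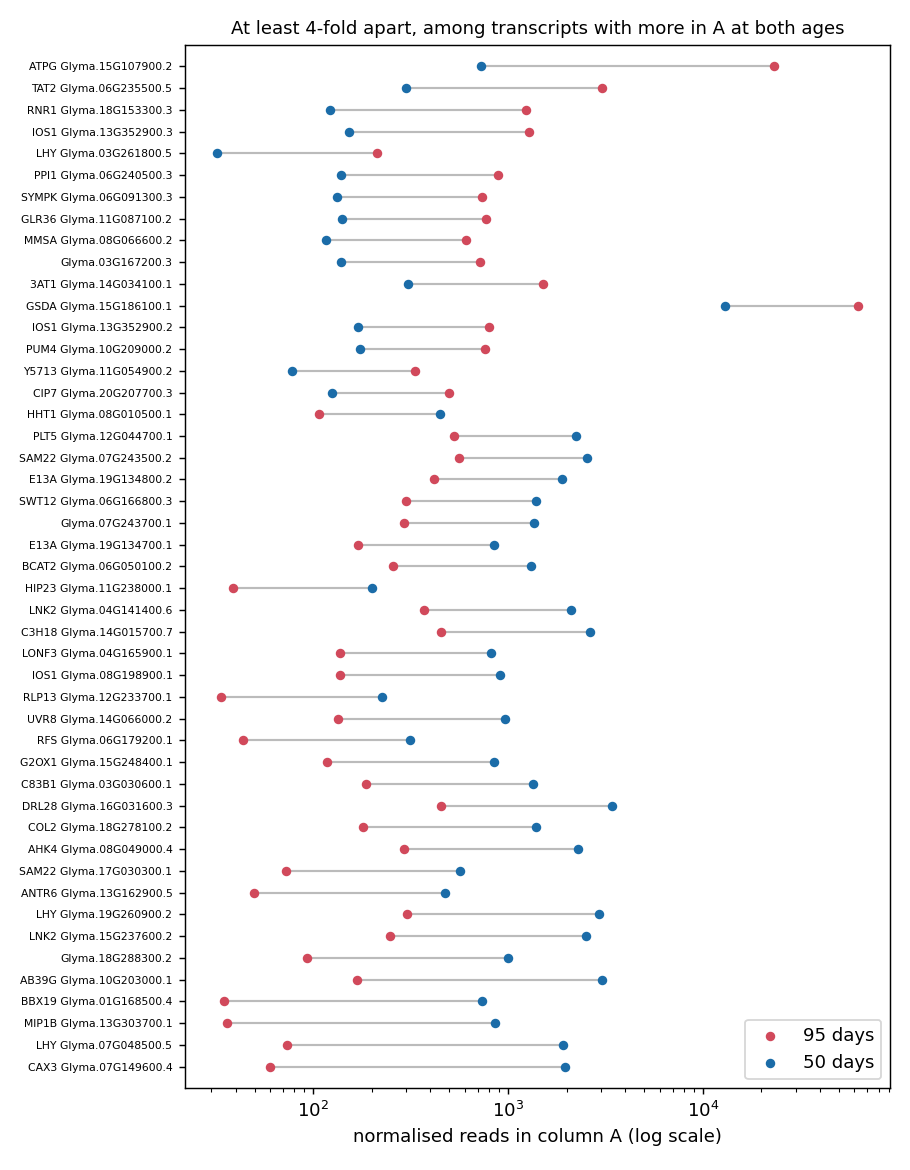
Normalised reads in column A (log scale) at 95 days (red) and 50 days (blue) for the 47 transcripts at least 4-fold apart among the 307 with more in A than in B at both ages, labelled by the symbol in the deposited tables and the transcript. The 16 higher at 95 days are at the top, from the gamma chain of ATP synthase down, and the 31 lower ones below, ending with the cation/proton exchanger.

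The pathogenesis-related and phenylpropanoid transcripts named here, with more in A at both ages, had log2 ratios mostly below 0 and, as scaled, mostly within 4-fold. These subgroups were picked with their values in view. A pathogen-related protein of the same set, Glyma.06G123700.2, was left out of them and was not lower, with 10106 normalised reads at 95 days and 9937 at 50 days. All 5 beta-1,3-glucanases, which degrade callose and fungal walls, had lower levels at 95 days, 2 of them past 4-fold, with log2 ratios between -2.31 and -1.34. Centring ended both calls, with all 5 still below 0. The most abundant, Glyma.12G021300.1, had 2672 normalised reads at 95 days and 6909 at 50 days. The 3 PR-10 proteins matched to SAM22 had log2 ratios between -2.98 and -1.60, 2 of them past 4-fold (1 when centred), and the most abundant, Glyma.17G030200.1, had 1868 against 5666. Of 10 phenylpropanoid transcripts with more in A at both ages, 8 had log2 ratios below 0, as 165 of all 307 had, and the only one past 4-fold was the higher acyltransferase named above. Their median log2 ratio was -1.25, beside -0.12 for all 307, and it was -1.88 with unscaled reads and -0.69 when centred. With unscaled reads, 4 of the 5 glucanases, all 3 PR-10 proteins and 5 of the 10 phenylpropanoid transcripts were past 4-fold lower. None of the 10 was then past 4-fold higher. The 3 dirigent proteins, which guide coupling of lignan precursors, lay between -1.70 and -1.13, and the 3 isoflavone reductases between -1.58 and -1.37. Isoflavone reductase-like Glyma.11G070600.1 had 1858 at 95 days and 4792 at 50 days. All 7 members of the protease list in the set had log2 ratios below 0, with a median of -1.22; centred, 5 of the 7 did, with a median of -0.66. As scaled, the only one past 4-fold was a RING finger protein with a LON peptidase N-terminal domain, Glyma.04G165900.1, which is not itself a protease, with 137 against 815. With unscaled reads 3 of the 7 were past 4-fold lower. A chloroplast 13S-lipoxygenase of jasmonate synthesis, Glyma.13G030300.1, had 2871 against 8946.

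Immune receptors and cell division genes with more in A at both ages were within 4-fold, as were 84.7% of all 307. All 14 transcripts of the NLR and defence list were, with a median log2 ratio of 0.34; NLRs are intracellular receptors that detect pathogen effectors, and the list also held a pathogenesis-related protein 1, Glyma.15G062400.1, with 1699 and 2673. The 5 RPM1-like receptors had log2 ratios between 0.31 and 0.59, for example Glyma.18G086600.1 with 3551 normalised reads at 95 days and 2861 at 50 days. Beyond these, 3 receptors that had changed side were at 0 in A at 50 days, among them Glyma.08G123300.4 with 724 at 95 days. All 7 cell division transcripts were within 4-fold, with a median of 0.51; kinesin KIN12A-like Glyma.01G012700.1 had 894 and 901. The list's other 2 compared members, kinesins that had changed side, had 202 (Glyma.17G259300.3) and 275 (Glyma.10G016000.2) at 95 days and none at 50 days. Of 23 receptor-like kinases, which sense signals at the cell surface, 19 were within 4-fold, 2 higher, both isoforms of 1 gene, and 2 lower, with a median of 0.09; a further 7 that had changed side were all lower. With unscaled reads the medians of the NLR, cell division and receptor-like kinase lists were -0.30, -0.13 and -0.54, so their direction depends on the scaling. The most abundant transcript followed, a BURP-domain protein of the RD22 type, Glyma.04G180400.1, had 99044 at 95 days and 73517 at 50 days, 1.35-fold. A pathogen-related protein, Glyma.06G123700.2, had 10106 and 9937, and beta-D-xylosidase 1, a cell wall enzyme, Glyma.15G143700.1, had 13433 and 22572.

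**Figure D5:**
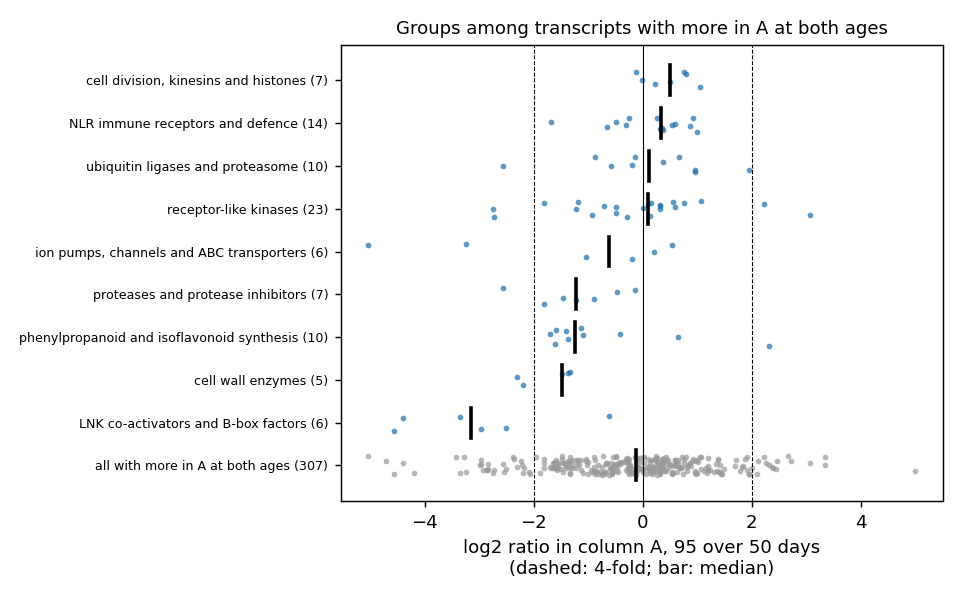
Log2 ratio in column A of 95 over 50 days for the transcripts with more in A at both ages, by list with at least 5 such transcripts (points, jittered vertically; black bar, median; dashed lines, 4-fold). The LNK and B-box list has the lowest median (-3.16), the NLR and cell division points stay inside the 4-fold lines, and all 307 transcripts are at the bottom.

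The remaining lists were small. Of transcripts with more in B at both ages, 219 were listed and only 8 reached the minimum in A. Aquaporin PIP1-6, Glyma.08G015300.1, a water channel, was higher in A at 95 days, with 653 normalised reads against 109 at 50 days, 5.98-fold (4.94 to 7.27), and in B it had 11643 against 2625. With unscaled reads it was within 4-fold in A. PGR5-like protein 1A, Glyma.01G214300.2, of cyclic electron flow, had 202 against none in A. The list counts that follow stand beside 16.4% higher and 34.8% lower among all compared, and most of their calls come from transcripts that had changed side, among them 6 of the 9 in the transporter list and all 6 in the chromatin list. The nitrogen list, whose words missed the glutamate synthase above, held 2 higher, 2 lower and 1 within 4-fold of 5, and over all sides the phenylpropanoid list held 1, 2 and 9 of 12 and the protease list 2, 3 and 6 of 11. The transporter list held 1 higher, 8 lower and 4 within 4-fold of 13, and the chromatin list 1, 5 and 1 of 7, from 4 genes. The splicing list held 3, 4 and 2 of 9, the abscisic acid list 3, 2 and 0 of 5, all of them protein phosphatases 2C, and the ethylene list 2, 1 and 2 of 5. The auxin list held 0, 2 and 4 of 6, the P450 and glycosyltransferase list 1, 3 and 3 of 7, and the MYB, bHLH and bZIP list 3, 2 and 1 of 6. No transcript listed at both ages matched the words of the NAC and WRKY, vascular, seed, nodule or carbon fixation and photorespiration lists, although that wording missed the phosphoglycolate phosphatase and glycolate oxidase above, and the guard cell list held 1 transcript, under the minimum. Because the tables hold only transcripts that differ between A and B, the leaf label could not be checked against leaf markers.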

How the data were processed

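Per the submitters' processing notes, the tools were Trimmomatic 0.36 and DESeq 1.36.0; the sources used here name no aligner, counter, build or annotation. The authors deposited, per age, a signal for A and B, a log2 value of B over A and p-values. After subtraction of the added 1, 100% of values in each column were whole multiples (within 0.01) of 1 step, read as whole reads over a size factor, for A 0.803 at 95 days and 1.25 at 50 days. That the 4 libraries were scaled jointly is inferred; no source states it. The listed rows are part of each library, so depth is unknown. A repeated row at 50 days was counted once.

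Ratios of 95 over 50 days were computed with Python 3.11.15, pandas 2.3.3, numpy 2.4.6 and scipy 1.17.1, and tested on simulated data. Members and lists were chosen with earlier results of these data known. The 39 lists are words in the symbol, match and description; 5 were reworded after wrong matches were seen. The naming rule took named transcripts: 12 per direction by ratio, 8 per direction by level, per list of 3 or more up to 2 from its commoner direction and 1 from the opposite one, genes with opposite isoforms (at most 6) and 5 abundant ones within 2-fold. Any other transcript was picked with its values known. No sequence or coordinate is given, since the tables used here tie no locus name to a reference sequence.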

Additional observations from a re-analysis of the deposited data

Results flagged for a closer look

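The ratio of 95 over 50 days ran in opposite directions in A and B for 69 transcripts at least 4-fold higher in A and at least 4-fold lower in B at 95 days, and for 144 at least 4-fold lower in A and higher in B. The difference between the libraries was not tested, since each has 1 sample per age, and the listing favours such transcripts: 231 of the 281 past 4-fold in A had changed side. Of the named ones with more than 3 reads in every library, the log2 ratio in A minus that in B was 11.41 for REVEILLE 1, Glyma.02G241000.1, then 9.88 for TOC1-like Glyma.17G102200.4 and 9.86 for IQ-DOMAIN 31-like Glyma.02G019700.6. It was negative for the others. The invertase or pectin methylesterase inhibitor Glyma.09G231900.1 had -12.56, MED12 isoform Glyma.18G232900.1 had -14.81 and glutamine synthetase Glyma.11G215500.2 had -11.81. PRR5-like Glyma.07G049400.16 had -11.58, the Clp protease adapter Glyma.07G089500.1 had -10.92 and the P450 78A5-like Glyma.01G061100.1 had -10.88. ABC transporter C15 Glyma.05G145000.1 had -10.17 and SAUR32 Glyma.07G051700.1 had -8.52.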

How the results depend on the processing

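The counts of 90 higher and 191 lower transcripts became 43 and 89 with a minimum of 500 normalised reads, 27 and 65 with at least 1 read at both ages, and 6 and 13 with the authors' adjusted p under 0.05 at either age. They became 16 and 31 among transcripts with more in A at both ages, a setting chosen after seeing the data. All of these compare fewer transcripts. The median log2 ratio of -0.56 became 0 when centred on itself, by construction, -1.19 with unscaled reads, -0.25 with at least 1 read at both ages and -0.12 with more in A at both ages. Of 21 lists with at least 3 compared transcripts, 13 had more lower than higher ones. This became 1 under the adjusted p and 7 with more in A at both ages. Only lists that kept at least 3 compared transcripts were counted, so these counts are out of fewer than 21 lists. The other settings left the counts of higher and lower within 1.5 times, as did every setting tried for the transcripts moving in opposite ways in A and B and for the named ones past 4-fold. Of the 86 named transcripts, 81 were past 4-fold. Of these 81, 11 fell short of 10-fold, 2 of 4-fold when centred and 3 of 4-fold with unscaled reads, and none changed sign. Centring left 1 of the 3 lower transcripts of the cell wall list past 4-fold. No paired analysis was possible because each age has 1 library in A, and leaving out a replicate could not be done. With depth unknown, only a transcript's own reads limit its value.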
